A study of Homo sapiens with 6 samples.

Results

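DNA replication and nucleotide supply genes are described here after an siRNA against parathyroid hormone-related protein (siPTHrP) in the established breast cancer cell line MDA-MB-231. The list holds 36 genes, chosen by name, and all 36 had at least 1 probe set that named no other gene, 54 of the 22215 probe sets on the array that are not controls. Both groups were electroporated and harvested 3 days later, one with siPTHrP and the other with siLuc, the control siRNA. The transfection was done 3 times independently, each time with 1 siLuc and 1 siPTHrP array, so each group held 3 arrays. All 6 arrays come from a single cell line, and p-values measure the spread between transfections of it. The transcript that the siRNA targets was not analysed here, which leaves the knockdown unchecked. Values are MAS5 signals, the summary that Affymetrix software makes of the probes of 1 probe set, scaled to a common array mean.

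Replication starts when the origin recognition complex, CDC6 and CDT1 load the MCM2 to MCM7 helicase ring onto origins in G1, a step called licensing. In S phase CDC45, the GINS complex and MCM10 activate that helicase, polymerase alpha with primase lays down primers, and replication factor C loads the PCNA clamp that holds the polymerases on DNA. Ribonucleotide reductase, thymidylate synthase and thymidine kinase supply the deoxynucleotides. Most of these genes are transcribed under E2F factors around the entry into S phase, together with cyclin E, and their mRNA levels are widely used to follow proliferation in tumour cells.

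The list was chosen by name, and most of its genes are known to be transcribed under E2F factors. E2F words in their promoters are therefore no independent finding. Sequences from the RefSeq promoter table (GRCh38.p14) were found for 33 of the 36 genes, and not for MCM4, MCM5 and CCNE2. The 250 bases before the annotated start were searched on both strands for the E2F words TTTCGCGC, TTTGGCGC, TTTCCCGC and TTTGGGCG and for CCAAT. An E2F word was present in 13 of 33 promoters (39.4%), against 2.79% of the 35116 promoters in the table and 3.5% of the 22199 promoters of protein-coding genes. CCAAT was present in 18 of 33 (54.5%), against 32.0% of all promoters. These words are short and some overlap, and a match describes the letters in the window only. Promoters of 4 members are printed 5′ to 3′ in the direction of the gene, with the matched letters in capitals: TYMS, which had the smallest p of the members, PCNA, whose difference depended on the experiments used, MCM6, whose signal differed little, and E2F1, which encodes an E2F factor. They lie at chr18:657403-657652 (plus strand, TYMS), chr2:135876444-135876693 (minus strand, MCM6), chr20:5126623-5126872 (minus strand, PCNA) and chr20:33686386-33686635 (minus strand, E2F1), each ending 1 base before the annotated start.
TYMS: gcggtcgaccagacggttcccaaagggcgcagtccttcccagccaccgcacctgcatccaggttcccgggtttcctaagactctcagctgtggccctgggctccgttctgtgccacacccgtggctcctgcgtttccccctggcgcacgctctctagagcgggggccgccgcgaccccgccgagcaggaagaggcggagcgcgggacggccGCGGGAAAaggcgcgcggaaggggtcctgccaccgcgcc
MCM6: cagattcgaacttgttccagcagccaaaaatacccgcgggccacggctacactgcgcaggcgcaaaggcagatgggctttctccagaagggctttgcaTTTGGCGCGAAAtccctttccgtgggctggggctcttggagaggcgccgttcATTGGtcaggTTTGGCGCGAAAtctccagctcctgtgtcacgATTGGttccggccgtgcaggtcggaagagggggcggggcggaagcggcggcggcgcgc
PCNA: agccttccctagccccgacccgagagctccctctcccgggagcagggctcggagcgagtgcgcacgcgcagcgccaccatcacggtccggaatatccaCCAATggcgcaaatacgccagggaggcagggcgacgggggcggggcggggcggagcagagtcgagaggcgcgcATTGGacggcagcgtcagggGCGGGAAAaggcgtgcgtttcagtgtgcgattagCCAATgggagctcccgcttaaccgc
E2F1: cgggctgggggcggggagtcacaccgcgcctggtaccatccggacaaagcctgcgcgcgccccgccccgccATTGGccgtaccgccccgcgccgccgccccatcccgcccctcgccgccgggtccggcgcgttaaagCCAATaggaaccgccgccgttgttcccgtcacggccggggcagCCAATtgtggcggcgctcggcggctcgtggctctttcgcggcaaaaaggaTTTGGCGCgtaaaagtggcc

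In MCM6 the 4 E2F matches form 2 stretches, each read on both strands, that cover bases 152 to 141 and 90 to 79 before the start. The TYMS word lies 39 to 32 bases before the start on the opposite strand, that of PCNA 59 to 52 bases before it, also on the opposite strand, and that of E2F1 20 to 13 bases before it. E2F words were found in 4 of 8 licensing promoters and in 1 of 4 promoters of nucleotide enzymes. CCAAT was found in all 4 promoters of the helicase activation genes, CDC45, GINS1, GINS2 and MCM10.

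One array, siLuc of experiment 1, differed from the rest. Over all probe sets it had Spearman correlations of 0.716 to 0.725 with the other arrays. Pairs among those 5 reached 0.882 to 0.96. Its 18 hybridisation controls, transcripts spiked into the sample, had a geometric mean of 273100, against 10870 to 41460 on the other arrays. The 3′/5′ ratio of ACTB, a measure of RNA integrity, was 1.5 there and 0.842 to 1.36 elsewhere. The GAPDH ratio was 1.05, within the 0.845 to 1.11 of the others. Its median signal was 887.2 against 559 to 659, and 90.1% of its values carried decimals against 0% on the other arrays. Whether it was processed with other settings is not given in the sources used here, and every value of experiment 1 rests on it. Values without experiment 1 or without that array stand beside the genes whose value moved most. All 6 genes known to be high in MDA-MB-231 (AXL, CAV1, CD44, LGALS1, MSN and VIM) lay above the intensity filter. Of 8 luminal or epithelial genes, CDH1, EPCAM and PGR lay below it and ERBB2, ESR1, FOXA1, GATA3 and KRT19 above it, and the summed signal of the 8 was 3755 to 7288 with siLuc and 3601 to 5016 with siPTHrP. Of 8 markers of blood, endothelial and stromal cells 3 lay above it (COL1A1, DCN and PECAM1), and the summed signal of the 8 was 5796 to 9193 with siLuc and 3087 to 5294 with siPTHrP. The filter is a percentile of intensity, so lying above it is no call that a gene is expressed. KRT19 was higher in all 3 experiments, at 1.78-fold (limma adjusted p = 0.428), and so was EPCAM, below the filter, at 3.37-fold, while ESR1 was lower in all 3, at 0.470-fold (limma adjusted p = 0.454). CDH1 and PGR, also below the filter, stood at 0.272-fold and 0.291-fold, lower in experiments 1 and 2 and higher in experiment 3. PECAM1 and DCN were lower in all 3 experiments, at 0.379-fold (limma adjusted p = 0.328) and 0.386-fold (limma adjusted p = 0.396). The part of these differences in the results below was not tested.

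With siPTHrP the replication genes as a set stood slightly above siLuc, and the 4 nucleotide enzymes had the highest median of the functional groups, but no gene passed the test. Without experiment 1 the helicase activation genes had the highest median (0.60, beside 0.59 for the nucleotide enzymes). Of the 36 genes, 33 were tested on their brightest probe set; ORC1, POLA2 and E2F2 lay below the intensity filter, which was set on the mean of all 6 arrays. The log2 fold change was above 0 in 21 of 33 genes (63.6%), where 52.5% of all 13329 probe sets tested were above 0. The median was 0.17, or 1.13-fold, beside 0.030 for all probe sets tested. The distance was gone with quantile normalization (0.092 beside 0.094) and without experiment 3 (0.038 beside 0.046). In experiments 1, 2 and 3 the median of the 33 genes was 0.21, 0.25 and 0.24, beside 0.082, -0.037 and -0.017 for all probe sets. The number of genes above 0 in those experiments was 22, 20 and 22 of 33, where 53.4%, 47% and 48.6% of all probe sets were.

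In the limma fit, which compared the arrays within experiments, 0 of 13329 probe sets (0%) passed at an adjusted p under 0.05 (Benjamini-Hochberg). Among the members TYMS came nearest, with a limma adjusted p of 0.332. At an unadjusted p under 0.05, 5 of 33 genes (15.2%) were higher, where 6.77% of all probe sets were, and 0 were lower, where 5.36% were. These 5 genes were TYMS, RRM2, TK1, RFC4 and MCM5. The difference was above 0 in all 3 experiments for 8 genes (24.2%), against a background of 19.1%, and below 0 in all 3 for 0, against 19.1%. The signals of the 3 siPTHrP arrays lay wholly above those of the 3 siLuc arrays for TYMS, RFC4 and MCM3, which at 9.09% is near the 8.94% of all probe sets. They lay wholly below for 0 genes, where 9.69% of all probe sets did.

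**Figure D1:**
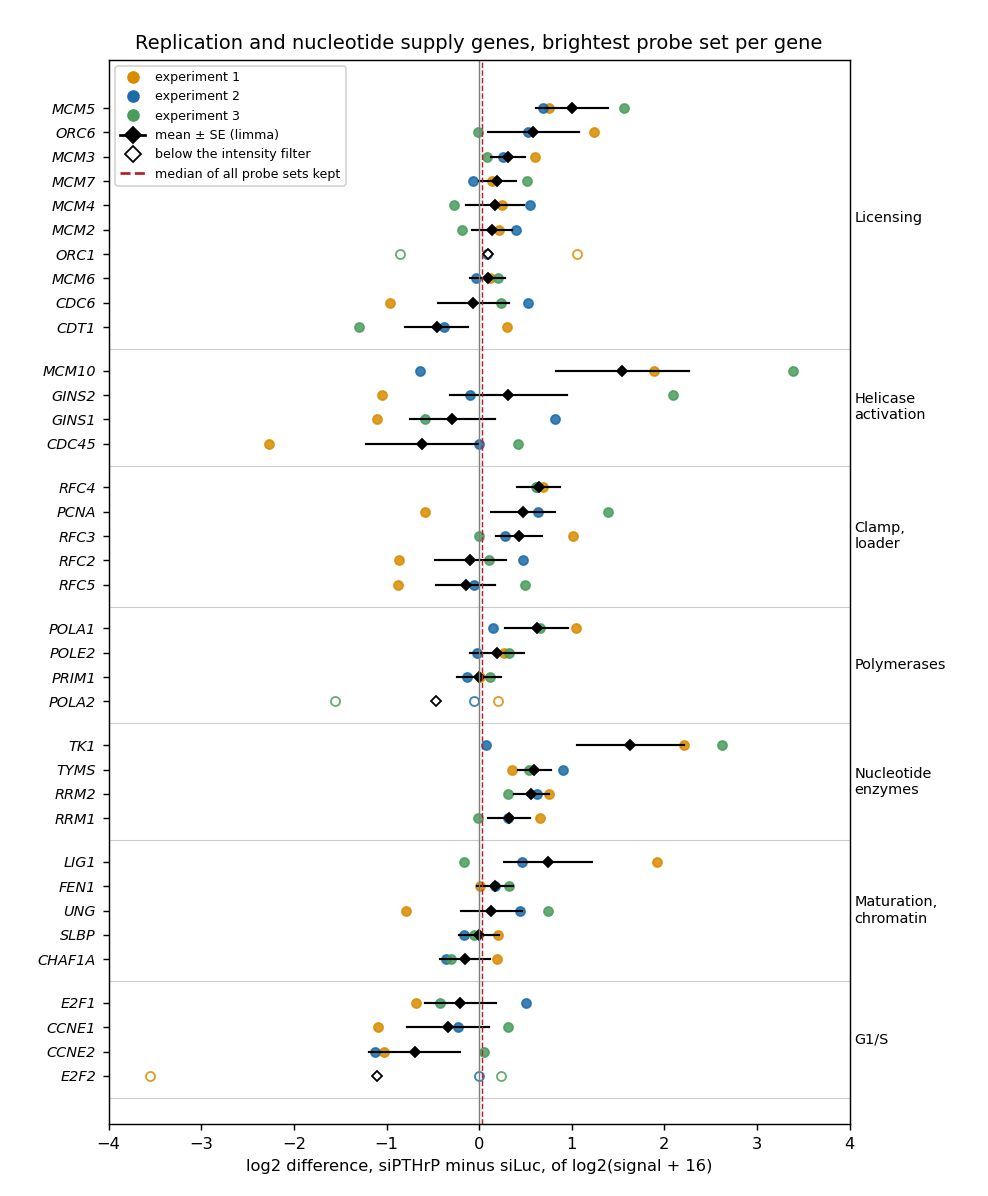
Each row is 1 gene on its brightest probe set, grouped by function; the x axis is the log2 difference of siPTHrP minus siLuc, circles are the 3 experiments, diamonds the mean with its limma SE, hollow symbols genes below the intensity filter, and the dashed line the median of all probe sets tested (0.030). The 4 nucleotide enzymes lie right of 0 on average, the 3 tested G1/S genes left of it (E2F1 was at 0.12 with median centring), and circles of experiment 1 are often far from the other 2, as for CDC45 and LIG1.

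The nucleotide enzymes were above 0 in 4 of 4 genes, with a median log2 fold change of 0.58 (1.49-fold), and 3 of the 4 had an unadjusted p under 0.05. All 4 stayed above 0 with quantile normalization (0.27 to 1.88), with median centring (0.65 to 1.96) and without experiment 1 (0.15 to 1.35). TYMS, thymidylate synthase, which makes dTMP from dUMP, had signals of 8599.6, 6712 and 8685 with siLuc and 10989, 12548 and 12586 with siPTHrP in experiments 1, 2 and 3. All 3 siPTHrP arrays lay above all 3 siLuc arrays. The mean went from 7998.9 ± 1115 to 12041 ± 911 (SD, n = 3). The log2 fold change was 0.60 with an SE of 0.17 (limma adjusted p = 0.332). Without experiment 1 it was 0.72 (limma adjusted p = 0.104), and with estimated array weights TYMS was the only member that passed (0.73, limma adjusted p = 0.0348). With array weights 177 of all 13329 probe sets passed, among them 1 of the 48 member probe sets. These weights were equal for the 2 arrays of each experiment (0.386, 2.23 and 1.16 in experiments 1, 2 and 3), so they weighted experiments, not single arrays. The TYMS difference was largest in experiment 2 (0.90). A second, dim probe set of TYMS lay below the filter, at 0.532-fold.

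RRM2, the small and S phase-regulated subunit of ribonucleotide reductase, had signals of 3425.2, 5431 and 3837 with siLuc and 5780, 8368 and 4756 with siPTHrP. The groups overlapped, since siLuc of experiment 2 lay above siPTHrP of experiment 3, but the siPTHrP array was the higher one in each experiment. The log2 fold change was 0.56 (SE 0.19, limma adjusted p = 0.362), and another probe set gave 1.38-fold. RRM1, the large subunit, ranged from 2572.4 to 3250 with siLuc and from 2577 to 4062 with siPTHrP, or 1.25-fold, with a log2 difference of -0.014 in experiment 3. On its other probe set RRM1 stood at 1.03-fold.

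TK1, the cytosolic thymidine kinase that salvages thymidine in S phase, had a fold change of 3.10, the largest of the tested members with all arrays. MCM10 was above it without experiment 1 (log2 1.38 against 1.35), without experiment 2 (2.64 against 2.42) and without the siLuc array of experiment 1 (1.53 against 1.36). The signals of TK1 were 267.3, 1278 and 176 with siLuc and 1292, 1343 and 1166 with siPTHrP. The 3 siPTHrP arrays were alike, while siLuc of experiment 2 lay with them. The other siLuc arrays were low, below 376, the signal at the intensity filter. The difference was 2.21, 0.071 and 2.62 on the log2 scale in experiments 1, 2 and 3, and the mean of 1.63 had an SE of 0.57 (limma adjusted p = 0.369). Without experiment 1 the log2 fold change was 1.35, and without experiment 2 it was 2.42.

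**Figure D2:**
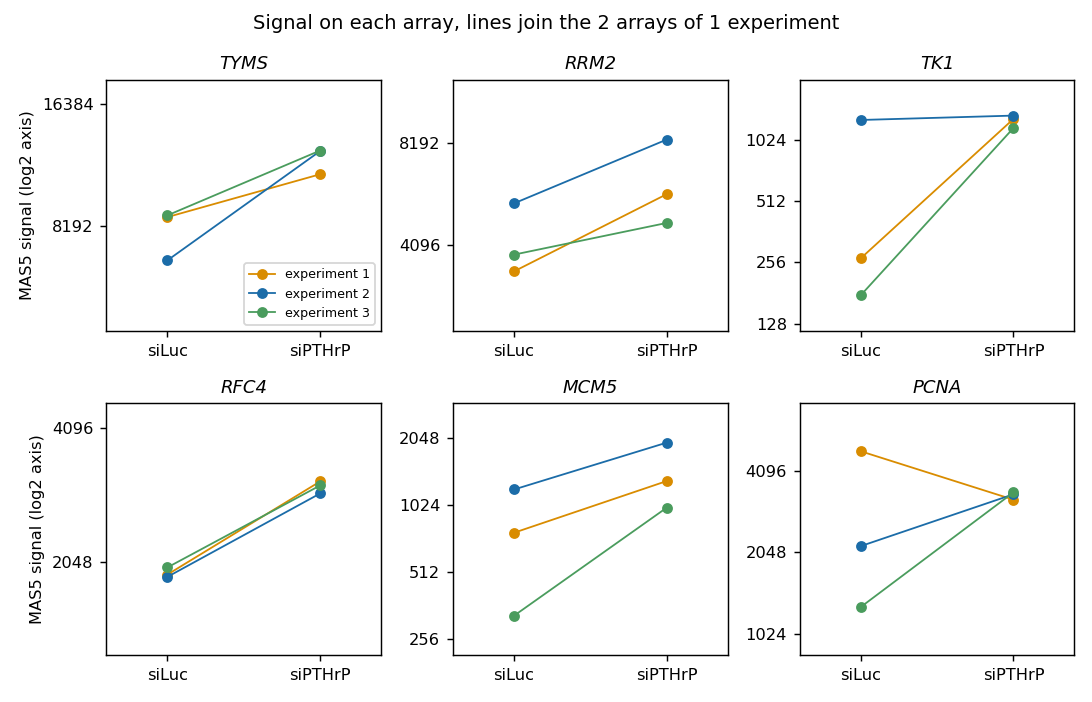
MAS5 signal (log2 axis) of 6 genes on the 6 arrays, with a line joining the siLuc and siPTHrP arrays of each experiment. All lines run upward except that of PCNA in experiment 1, the 3 lines of RFC4 nearly coincide, and TK1 is nearly level in experiment 2.

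The licensing genes had 7 of 9 tested members above 0 and a median of 0.17 (1.13-fold), with folds from 0.727 to 2.01. The helicase ring subunits MCM2, MCM3, MCM4, MCM5, MCM6 and MCM7 all stood above 0 on their brightest probe sets in the fit as reported. MCM6 was at -0.004 with quantile normalization. MCM2, MCM4, MCM6 and MCM7 were above 0 in 2 of 3 experiments, and MCM4 was at -0.27 in experiment 3. MCM5 had signals of 771.6, 1207 and 327 with siLuc and 1317, 1960 and 1000 with siPTHrP. The siPTHrP array was the higher in each experiment, although siLuc of experiment 2 lay above siPTHrP of experiment 3. Its log2 fold change was 1.01 (SE 0.39, limma adjusted p = 0.394), and a second probe set lay below the filter at 1.45-fold.

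MCM3 had 4670.5, 6092 and 6626 with siLuc and 7105, 7257 and 7022 with siPTHrP. The groups did not overlap, but the difference was small, at 1.24-fold (log2 0.31, SE 0.18, limma adjusted p = 0.492), and it shrank to 0.17 without experiment 1. MCM6 differed least of the ring subunits, with 3743 to 4183 against 4078 to 4406, or 1.06-fold. MCM2 stood at 1.10-fold, and MCM7 at 1.15-fold on one probe set and at 1.35-fold on another, where the groups did not overlap. MCM4 stood at 1.13-fold on its brightest probe set, with 0.771-fold, 1.13-fold and 1.66-fold on its other 3.

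The loading factors gave no common direction. CDT1, which brings the MCM ring to origins, had 1485.4, 2449 and 2268 with siLuc and 1827, 1882 and 912 with siPTHrP. It stood at 0.727-fold (-0.46 on the log2 scale, SE 0.34, limma adjusted p = 0.568), lower in experiments 2 and 3 and higher in experiment 1, and the value was -0.84 without experiment 1 (limma adjusted p = 0.204) and -0.041 without experiment 3. CDC6, the loading ATPase, stood at 0.956-fold, at a log2 value of 0.38 without experiment 1, and at 1.12-fold on a second probe set. ORC6, a subunit of the origin recognition complex, stood at 0.58 on the log2 scale (limma adjusted p = 0.614), and at 0.26 without experiment 1. ORC1, the largest subunit of that complex, lay below the filter with signals of 143.6 to 418 and stood at 1.07-fold.

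The helicase activation genes varied most between experiments, with 2 of 4 above 0 and group medians of -1.08, -0.050 and 1.26 in experiments 1, 2 and 3. MCM10, an activator of the loaded helicase, had 372.9, 1189 and 117 with siLuc and 1425, 757 and 1380 with siPTHrP. It was higher in experiments 1 and 3 and lower in experiment 2, and 1.55 higher on average on the log2 scale (SE 0.72, limma adjusted p = 0.424). Leaving out 1 experiment moved this value to between 0.62 (without experiment 3) and 2.64 (without experiment 2). The siLuc signals of MCM10 in experiments 1 and 3 lay below 376, the signal at the intensity filter.

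CDC45, a subunit of the active helicase, had 1447.3, 538 and 692 with siLuc and 287, 536 and 931 with siPTHrP. Its mean log2 difference of -0.62 (SE 0.61, limma adjusted p = 0.667) rested on experiment 1, where siLuc was the highest and siPTHrP the lowest of the 6 arrays. It was 0.21 without that experiment and -0.21 without its siLuc array alone. GINS1 had 1772.2, 585 and 1066 against 815, 1047 and 704, or -0.29 on the log2 scale, which was 0.12 without experiment 1. GINS2, another subunit of the same complex, stood at 1.24-fold (limma adjusted p = 0.844), with differences of -1.05, -0.096 and 2.10, and at a log2 value of 1.00 without experiment 1.

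In the clamp and clamp loader group 3 of 5 genes stood above 0, with a median of 0.43 (1.35-fold). RFC4, a small subunit of the clamp loader, had the most even difference of all members. Its signals were 1914.9, 1892 and 1987 with siLuc and 3106, 2918 and 3042 with siPTHrP, so that the groups were far apart and each was narrow. Experiments 1, 2 and 3 gave log2 differences of 0.69, 0.62 and 0.61 (mean 0.64, SE 0.23, limma adjusted p = 0.377), and it lay between 0.62 and 0.66 when any 1 experiment was left out. The SE in limma draws on the spread of other probe sets of like intensity, and is here wider than the spread of the 3 differences.

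PCNA, the sliding clamp, had 4825.6, 2158 and 1287 with siLuc and 3201, 3349 and 3402 with siPTHrP. The siPTHrP arrays were alike, and the siLuc array of experiment 1 lay above them while the other siLuc arrays lay below. The log2 fold change was 0.48 (SE 0.34, limma adjusted p = 0.556), and 1.01 without experiment 1 (limma adjusted p = 0.0998), the smallest adjusted p of any member in that setting. Without experiment 3 it was 0.020. RFC3 had 1918.7, 3363 and 2751 with siLuc and 3874, 4082 and 2751 with siPTHrP, 1.35-fold, with the same signal on both arrays of experiment 3. Its log2 fold change was 0.43, and 0.14 without experiment 1. RFC2 and RFC5 stood at 0.935-fold and 0.905-fold on their brightest probe sets, and without experiment 1 at 0.29 and 0.22 on the log2 scale. Other probe sets of these 2 genes gave 1.98-fold for RFC2, and 1.72-fold and 1.07-fold for RFC5. The RFC5 probe set at 1.72-fold had non-overlapping groups and an unadjusted p of 0.0460 (limma adjusted p = 0.408).

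Among the polymerase genes POLA1, the catalytic subunit of polymerase alpha, had 824.5, 1410 and 813 with siLuc and 1724, 1571 and 1291 with siPTHrP. It was higher with siPTHrP in 3 of 3 experiments, 1.54-fold, although the groups overlapped (log2 0.62, SE 0.34, limma adjusted p = 0.468), and the log2 value was 0.41 without experiment 1. POLE2, a subunit of polymerase epsilon, had 1390.5, 1763 and 1075 against 1675, 1731 and 1352, or 1.14-fold. PRIM1, the catalytic primase subunit, had 2305.4, 2630 and 1903 against 2317, 2394 and 2066, or 0.998-fold, and its 3 differences lay between -0.14 and 0.12. POLA2, the second subunit of polymerase alpha, lay below the filter and stood at 0.721-fold, with signals of 111.3 to 843 with siLuc and 130 to 276 with siPTHrP.

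Genes of Okazaki fragment maturation, uracil repair, chromatin assembly and histone mRNA lay on both sides of 0, with 3 of 5 above it and a group median of 0.13. LIG1, the ligase that seals Okazaki fragments, had 330.5, 910 and 1070 with siLuc and 1300, 1259 and 957 with siPTHrP. Its 1.67-fold (limma adjusted p = 0.519) rested on the low siLuc array of experiment 1, and the log2 fold change of 0.74 was 0.15 without that experiment. FEN1, the flap endonuclease, had 4410.7, 3515 and 3812 against 4425, 3967 and 4781, or 1.12-fold, and 0.896-fold on its second probe set. CHAF1A, the large subunit of chromatin assembly factor 1, had 1319.1, 1999 and 2596 against 1514, 1557 and 2099, or 0.898-fold, and its log2 value of -0.16 was -0.33 without experiment 1. UNG, the uracil glycosylase, stood at 1.10-fold, and at a log2 value of 0.59 without experiment 1, and SLBP, which binds the stem-loop of histone mRNA, at 0.998-fold.

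The G1/S regulators were the only group with no tested member above 0 (0 of 3, median -0.34), but 2 of the 3 turned sign without experiment 1 and E2F1 also with median centring. CCNE1, cyclin E1, had 2163.4, 632 and 597 with siLuc and 1004, 535 and 743 with siPTHrP. Its mean log2 difference of -0.34 (SE 0.44, limma adjusted p = 0.754) was 0.037 without experiment 1. CCNE2, cyclin E2, had 1329.5, 712 and 627 against 643, 319 and 652, with lower signal in experiments 1 and 2 and a log2 difference of 0.055 in experiment 3 (mean -0.70, SE 0.49, limma adjusted p = 0.550), and -0.37 without the siLuc array of experiment 1. Its other probe set lay below the filter and went the other way, at 1.43-fold.

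E2F1, an activating E2F factor, had 1716.7, 697 and 1209 with siLuc and 1060, 998 and 895 with siPTHrP, or 0.869-fold (limma adjusted p = 0.837). The groups overlapped, and the log2 fold change of -0.20 was 0.040 without experiment 1 and 0.12 with median centring. E2F2, a second activator, lay below the filter with 711.8, 74 and 224 against 46, 74 and 266. Its log2 difference of -1.11 came from experiment 1 (-3.55), with 0 and 0.23 in the others, and it was 0.12 without experiment 1.

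The siLuc arrays spread more than the siPTHrP arrays for these genes, as they did for the whole array. The SD of log2 signal was larger with siLuc than with siPTHrP in 24 of 33 genes (72.7%), where 73.3% of all probe sets showed the same, and its median was 0.48 with siLuc and 0.24 with siPTHrP. The siLuc SD includes the array of experiment 1 that stood apart. Between the siLuc arrays of experiments 2 and 3, the median absolute log2 difference was 0.34 for the 33 genes and 0.38 for all probe sets tested. The geometric mean signal of the 33 genes was 1837, 1747 and 1355 on the siLuc arrays and 1977, 1986 and 1810 on the siPTHrP arrays. That of all probe sets tested was 1549, 1669 and 1634, and 1626, 1609 and 1596. The siPTHrP array was the higher one in each experiment for the 33 genes, but siPTHrP of experiment 3 lay below siLuc of experiment 1.

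Probe sets of 1 gene did not always give the same sign. Of 11 members with more than 1 probe set above the filter, 5 had the same sign on all of them (E2F1, MCM7, RFC3, RRM1 and RRM2) and 6 had both signs (CDC6, CHAF1A, FEN1, MCM4, RFC2 and RFC5). In RFC2 the log2 fold changes were -0.096 and 0.98, and in MCM4 they ran from -0.38 to 0.74. Over all 48 member probe sets above the filter 33 were above 0, where 52.5% of all probe sets were. An unadjusted p under 0.05 was found for 6, all of them higher (6.77% of all probe sets). The difference was above 0 in all 3 experiments for 13 and below 0 in all 3 for 1, where 19.1% of all probe sets were in each case.

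**Figure D3:**
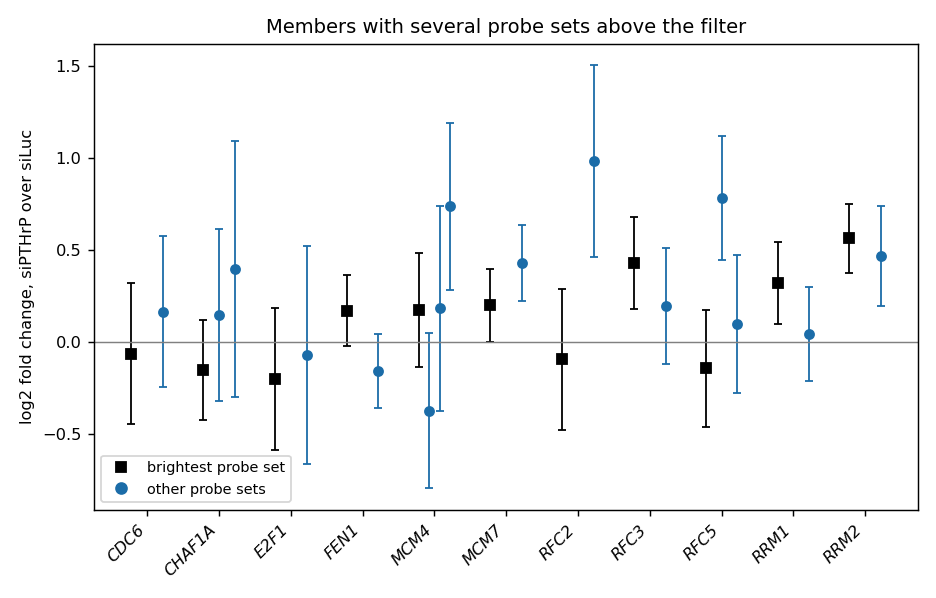
Log2 fold change (siPTHrP over siLuc) with its limma SE for every probe set above the filter of the 11 members that have more than 1, with squares for the brightest probe set and circles for the others. The 2 probe sets of RRM2 agree, whereas those of RFC2 run from -0.096 to 0.98 and those of MCM4 from -0.38 to 0.74.

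The removal of the array that stood apart changed the counts. When siLuc of experiment 1 was left out and the arrays were compared unpaired, 29 of 33 genes stood above 0, with a median of 0.26 beside -0.027 for all probe sets. Without experiment 1 there were 28 of 33, with a median of 0.21 beside -0.026, and 9 member probe sets were higher and 1 lower at an unadjusted p under 0.05, of 48, where 6.72% of all probe sets were higher and 7.16% lower. The members were brighter than most probe sets, with a median brightness percentile of 72.4. With only probe sets above the 60th percentile the median was 0.17 for the members and 0.090 for all probe sets, a distance of 0.080 in place of 0.14. With median centring both moved up, to 0.50 and 0.36, so that the distance between them stayed at 0.14.

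**Figure D4:**
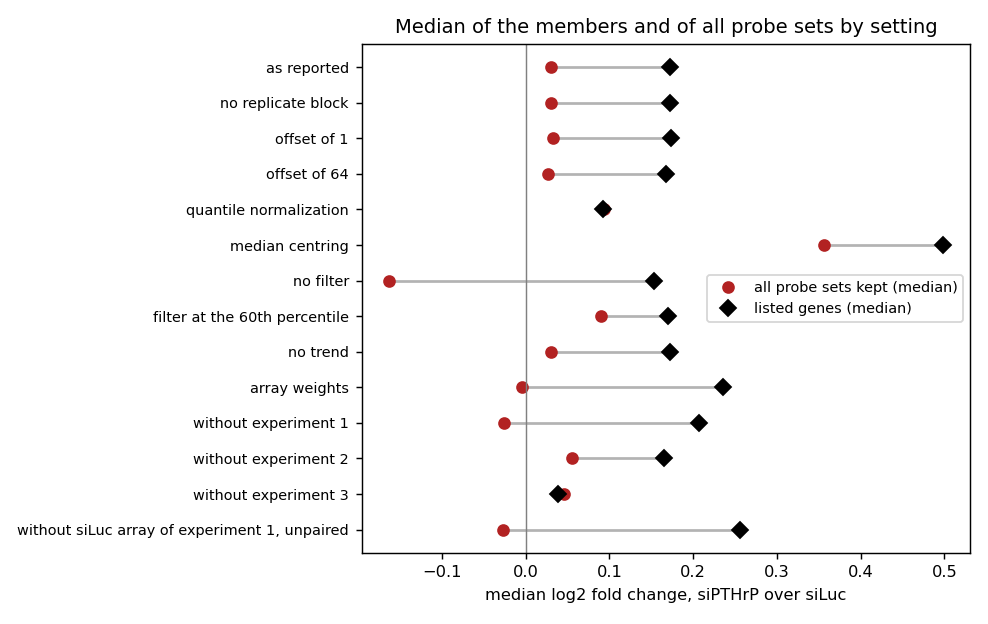
Median log2 fold change (siPTHrP over siLuc) of the tested members (black diamonds) and of all probe sets tested (red circles) under each processing setting. The 2 medians coincide with quantile normalization (0.092 and 0.094) and without experiment 3 (0.038 and 0.046), and lie farthest apart with no filter (0.15 and -0.16) and without the siLuc array of experiment 1 (0.26 and -0.027).

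Members with an E2F word in the promoter were above 0 in 9 of 11 tested genes, with a median of 0.32 and a range from -0.46 to 0.74. Those without one were above 0 in 10 of 19, with a median of 0.13 and a range from -0.62 to 1.63. Other forms of an E2F site were not searched, so absence of these words is not absence of a site. The ranges overlapped over most of their length. MCM4, MCM5 and CCNE2 had no promoter sequence and are in neither set, at log2 fold changes of 0.17, 1.01 and -0.70. TK1 and RFC4, which like MCM5 were among the 5 genes with an unadjusted p under 0.05, had neither an E2F word nor CCAAT in this window, and RRM2 had CCAAT on 3 places.

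Other genes of the pathway, a list of 78 with 71 on the array, lay on both sides of 0. Of 62 tested, 38 were above 0 (52.5% of all probe sets were), with a median of 0.15. At an unadjusted p under 0.05, 7 were higher and 2 lower, where 6.77% and 5.36% of all probe sets were, and 0 passed the adjusted threshold in limma. Of these 62, the difference was above 0 in all 3 experiments for 24 and below 0 in all 3 for 11. Over all probe sets the share was 19.1% in each case. The groups did not overlap for 9 higher and 6 lower genes, where 8.94% of all probe sets were higher and 9.69% lower without overlap. The other nucleotide supply genes, apart from the 4 enzymes above, were above 0 in 8 of 17, with a median of -0.031. DUT, the dUTPase that supplies dUMP to thymidylate synthase, had 5594.5, 6099 and 3773 with siLuc and 9053, 8710 and 7727 with siPTHrP, with no overlap. It stood at 1.68-fold (log2 0.75, SE 0.18, limma adjusted p = 0.324), and its other 2 probe sets gave 1.71-fold and 1.26-fold. TOP2A, the S and G2 phase topoisomerase, stood at 1.77-fold and at 1.90-fold on a second probe set.

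The other genes higher at that threshold were origin recognition and polymerase delta subunits and 1 subunit of the single-strand binding protein RPA. ORC3 stood at 2.37-fold and ORC5 at 2.68-fold, although the other tested probe set of ORC5 gave 0.874-fold. POLD1, the catalytic subunit of polymerase delta, stood at 2.67-fold and its small subunit POLD4 at 2.53-fold. RPA2 stood at 1.88-fold. For POLD1, POLD4, RPA2 and ORC5 the log2 difference was 2.29 to 3.49 in experiment 1, where the siLuc array was low, and 0.13 to 0.64 in the other experiments. The 2 lower genes were POLD2, another polymerase delta subunit, at 0.668-fold with no overlap, and RPA1, the large RPA subunit, at 0.723-fold.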

How the data were processed

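MAS5 signal intensities from 6 Affymetrix HG-U133A arrays were used as the authors deposited them, on a linear scale, per the submitters' processing notes, which give no version. Their trimmed means were 1500.4 to 1500.6, so the scaling was kept. Groups came from titles and descriptions. One siLuc sample carries no number and was read as experiment 1 by elimination; for another, numbered 3 in its title and 2 in its description, the title was followed. Per the labels' design text each siPTHrP RNA was compared with the siLuc RNA of its own experiment, and the experiment was therefore a replicate block. Deviations from the group means correlated at -0.012, 0.157 and 0.157 within experiments 1, 2 and 3 and at -0.206 to 0.132 across them.

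Probe sets were named where the platform annotation lists 1 gene (19071 of 22283), and 68 controls were left out. Of the 22215 others, with or without a gene name, 13329 were tested. These had a mean log2(intensity + 16) at or above the 40th percentile (8.614, a signal of 376). The test used limma 3.58.1 in R 4.3.3 (lmFit, eBayes with an intensity trend, 2 residual and 7.17 prior degrees of freedom). Two-sided p-values were adjusted over all 13329 probe sets. The offset of 16 understates folds of dim probe sets. The steps were tested on simulated data.

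The brightest probe set stood for its gene. Signals of each array are printed for up to 3 members per functional group with the smallest p, and for those whose log2 change was 1 or more in size; other pathway genes are named at an unadjusted p under 0.05. The members, lists and motifs were chosen with earlier results of these data known. Alternatives were no replicate block, an offset of 1 or 64, quantile normalization, centring each array on its median, testing all probe sets or only those above the 60th percentile, no trend, array weights, other choices of probe set, and leaving out an experiment or the siLuc array of experiment 1.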

Additional observations from a re-analysis of the deposited data

How the results depend on the processing

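With no replicate block 0 probe sets passed, as with it, and 4 member probe sets in place of 6 had an unadjusted p under 0.05, while the members' median stayed at 0.17. Array weights, equal for the 2 arrays of each experiment, gave 177 of 13329 probe sets past the adjusted threshold, and 1 of 48 member probe sets. Leaving out 1 experiment gave 38 to 175, in fits with 1 residual degree of freedom. The count of member probe sets at an unadjusted p under 0.05 was 2 (without experiment 2) to 10 (without experiment 1), and 12 with median centring, which moved the median of all probe sets from 0.030 to 0.36 and the share of all probe sets higher at that p from 6.77% to 14.5%. That share was 6.25% without experiment 2, where 2 member probe sets were higher and 0 lower. It was 6.72% without experiment 1, where 9 member probe sets were higher and 1 lower. The share of all probe sets lower at that p was 3.7% without experiment 2 and 7.16% without experiment 1. The members' median was 0.092 with quantile normalization, 0.50 with median centring, 0.24 with array weights, 0.26 without the siLuc array of experiment 1, and 0.038 to 0.21 when 1 experiment was left out. Of the 21 tested genes with printed signals, 6 changed sign in some setting. When 1 experiment was left out the log2 fold change ran from -0.67 to 0.037 for CCNE1, from -1.14 to 0.21 for CDC45, from -0.56 to 0.040 for E2F1, from -0.85 to 0.12 for GINS1 and from -0.064 to 0.062 for PRIM1. Without the siLuc array of experiment 1 it was 0.26 for CCNE1, 0.095 for E2F1, 0.093 for GINS1 and 0.011 for PRIM1. Median centring gave 0.17 for CHAF1A, 0.12 for E2F1, 0.036 for GINS1 and 0.32 for PRIM1, and array weights 0.099 for E2F1 and 0.19 for GINS1. TYMS passed with array weights alone (0.73, limma adjusted p = 0.0348), with adjusted p up to 0.612 elsewhere. The filter at the 60th percentile left out 5 of the 21 genes. The cause of these changes was not tested. Having 3 arrays a group limits the precision throughout.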
